A study of Mus musculus with 64 samples.

Results

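CD3+CD4- cells are cells of the colon in transfer colitis that carried the T cell receptor protein CD3 above a threshold and the co-receptor CD4 at or below one. They were picked by their antibody counts from 9 libraries of sorted colonic immune cells. Barcodes with fewer than 50 antibody counts, or above the 99th percentile of their library, were dropped, which kept 130442 of 131917 barcodes. Counts were put on a centred log scale: 1 was added to each count, the natural log was taken, and the mean of these logs over the cell's 11 antibodies was subtracted. Members had a CD3 value above -0.155 and a CD4 value at or below 0.652. The rule took 2151 of the 130442 kept cells. Because CD3 and CD4 chose the cells, their levels on them are given below as a description only. The other 9 antibodies entered the choice through the subtracted mean.

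The study induced colitis in immunodeficient mice by T cell transfer and followed the colon over time. The libraries used here come from SCID mice given CD45RBhi cells, the transferred fraction named in the labels. The treated library came from week 7 of SCID mice with CD45RBhi transfer that also received anti-IL-12p40 from day 10, and the 8 untreated libraries from SCID mice with CD45RBhi transfer alone, 1 for each of weeks 0 to 7. Each library pooled the colons of 3 animals, and its cells were sorted as EpCAM- CD45+ from the lamina propria. With 1 pooled library per week and treatment, the spread between animals is unknown, and every interval on a share given here is an exact Clopper-Pearson 95% interval that covers counting error only. SCID hosts keep their own innate lymphoid and myeloid cells and can form a few lymphocytes of their own, and donor and host cells carried no label that tells them apart.

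CD3 is the signalling part of the T cell receptor and marks all T cells. CD4 marks helper T cells, the cells that drive transfer colitis, while CD8 T cells, gamma-delta T cells and some natural killer T cells carry CD3 without CD4. Macrophages and some innate lymphoid cells can carry CD4 without CD3. CD90.2 is found on T cells and innate lymphoid cells, CD127 binds interleukin-7, KLRG1 is an inhibitory receptor of effector lymphocytes, and CD103 is the integrin that binds epithelial E-cadherin. The myeloid antibodies were those to CD11b and CD11c, which are integrins, CD64, typical of macrophages, Ly-6C, found on monocytes, and Ly-6G, found on neutrophils. Below, myeloid-positive cells and cells without myeloid proteins are sorted by CD11b, CD11c and CD64 only. The panel held no antibody to CD8, to the receptor chains, to natural killer cells or to B cells, so no name narrower than CD3+CD4- is given to these cells.

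Antibody counts per library ranged from 12914066 to 28723452 over 11534 to 21229 barcodes. In 3 libraries the barcodes outnumbered the 16000 cells loaded. Any pair of libraries shared 30 to 110 barcodes, and 60 of the 2151 CD3+CD4- cells had a barcode that also occurred in another library. The label markers were checked first. CD90.2, which a T cell should carry, was positive on 83.6% of the CD3+CD4- cells of the treated library and on 84.4% at week 2. It was positive on 30.6% to 56.7% in the other 7 libraries, against 93.8% to 99.8% of CD3+CD4+ cells in the 8 libraries that had enough of those to count. Outside week 2 and the treated library, CD90.2 relative to the other antibodies therefore goes against a T cell name for a large share of these cells. They are called by their gate. A cell with high counts of many antibodies can fall below this relative threshold while it carries CD90.2.

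The cells were most frequent in the treated library and scarce from week 5 on. They made up 4.55% of kept cells in the anti-IL-12p40 library (566 cells). Without treatment, weeks 0 to 3 had 0.598% (100 cells), 2.38% (300), 2.14% (449) and 2.38% (299). For weeks 4 to 7 the shares were 1.55% (278 cells), 0.338% (47), 0.526% (60) and 0.437% (52). Weeks 1 to 4 lay above weeks 0 and 5 to 7, and their intervals did not overlap those of the late weeks. The share had a Spearman correlation of -0.62 with week over the 8 untreated libraries (two-sided exact permutation p = 0.115, Pearson r = -0.53 with exact p = 0.171). Without weeks 0 and 7, the 2 farthest from the middle week, the correlation was -0.77 (exact p = 0.103, r = -0.90 with exact p = 0.0222). The trend passed 0.05 when week 0 alone was left out (-0.79, exact permutation p = 0.0480) or when cells positive for CD11b, CD11c or CD64 were left out (-0.79, exact p = 0.0279). It was close to 0 with scaling to the library median (-0.095, exact p = 0.840), a CD4 threshold 0.5 units higher (-0.048, exact p = 0.935) or at least 10 CD3 counts asked of members (-0.024, exact p = 0.977), and it was -0.19 with a CD3 threshold 0.5 units higher (exact p = 0.665). For the CD3-bright CD90.2+ members described below it had the other sign (0.29, exact p = 0.501).

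As a share of CD3+ cells they were lower in later weeks, while CD3+CD4+ cells numbered 1 at week 0 and 10433 at week 7. CD3+CD4- cells were 6.47% of CD3+ cells in the treated library. Over the untreated weeks 0 to 7 they were 99.0% (of 101 cells), 33.3%, 5.18%, 3.87%, 2.81%, 0.472%, 0.940% and 0.496% of CD3+ cells. The denominator of this second share grows with the CD3+CD4+ cells: from week 1 to week 3 it went down while the share of kept cells was 2.38%, 2.14% and 2.38%. It is therefore given as a description, with no test.

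The gate held different cells in different libraries. To describe this, the members were sorted into 4 exclusive kinds, a sorting chosen after their values were seen and therefore not tested. A total of 750 members (34.9%) were positive for CD11b, CD11c or CD64. Of the rest, 607 (28.2%) had fewer than 10 CD3 counts and are called CD3-dim. A further 106 (4.93%) were CD3-bright but not positive for CD90.2, and 688 (32.0%) were CD3-bright and positive for CD90.2. Positive here means above a threshold at which the upper and lower component of a Gaussian mixture, fitted to cells of all libraries, were equally likely, with values centred on the 9 antibodies other than CD3 and CD4. Of the 688 CD3-bright CD90.2+ cells, 565 (82.1%) lay in the treated library and in week 2, and the other 7 libraries held 4 to 46 each.

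**Figure D1:**
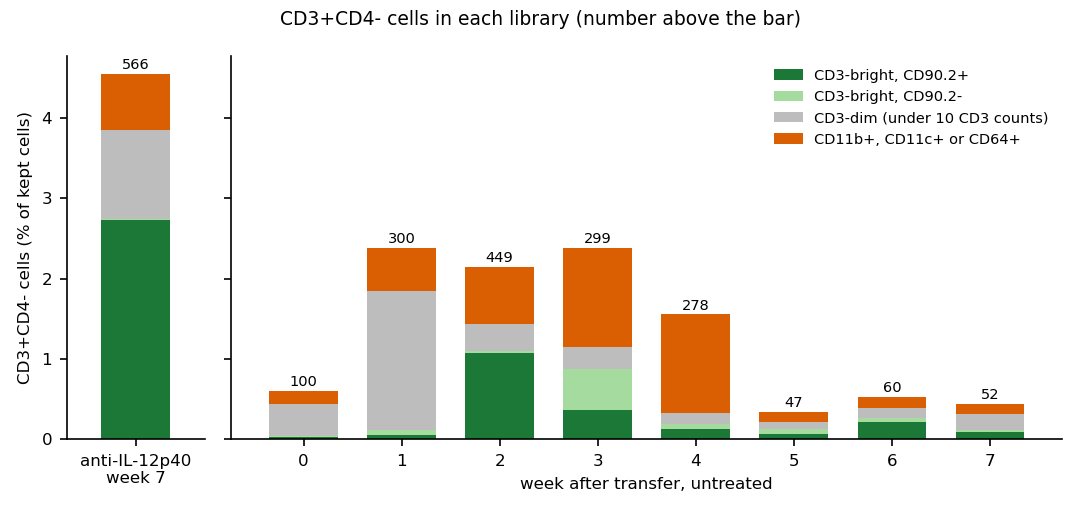
CD3+CD4- cells as a percentage of kept cells in the anti-IL-12p40 week 7 library (left) and in the untreated libraries of weeks 0 to 7 (right), stacked by kind, with the number of cells above each bar. CD3-bright CD90.2+ cells fill most of the treated bar and are the largest kind at week 2, CD3-dim cells lead at weeks 0, 1 and 7, and CD11b+, CD11c+ or CD64+ cells lead at weeks 3, 4 and 5 (18 of 47 cells at week 5). CD3-bright CD90.2+ cells also lead at week 6, with 25 of 60 cells.

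At weeks 0 and 1 the gate held shallow cells with a handful of CD3 counts. CD3-dim cells were 68 of 100 members at week 0 and 219 of 300 at week 1. Members had a median of 185 antibody counts at week 0, with 5 for CD3 and 36 for CD90.2, whereas CD3-CD4- cells of that library had a median of 1030.5 counts with 2 for CD3 and 493 for CD90.2. At week 1 members had a median of 186 counts with 4 for CD3, against 1046 counts with 47 for CD3 in CD3+CD4+ cells. These cells thus passed the CD3 threshold with few counts in all. Within 0.25 units inside that threshold the median CD3 count was 4 at week 0 and 3 at week 1, and it was also 4 and 3 within 0.25 units outside it. CD3-bright CD90.2+ members numbered 4 at week 0 and 7 at week 1. Whether low depth placed the other members of these weeks in the gate was not tested.

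Shallow cells were more often in the gate in each library. Among cells with 50 to fewer than 200 counts, 18.7% were CD3+CD4- in the treated library and 3.95% to 23.8% in the untreated ones. Among cells with 1000 counts or more, the share was 3.53% in the treated library, 1.79% at week 2, 2.22% at week 3 and 1.82% at week 4. In the same deep cells it was 0.771% at week 1 and 0.203% to 0.401% at weeks 0, 5, 6 and 7. Deep cells of the treated library and of weeks 2 to 4 were therefore in the gate more often than those of the other weeks, with intervals that did not overlap. At week 7 the shallowest cells were 0.705% of kept cells but 38.5% of members.

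**Figure D2:**
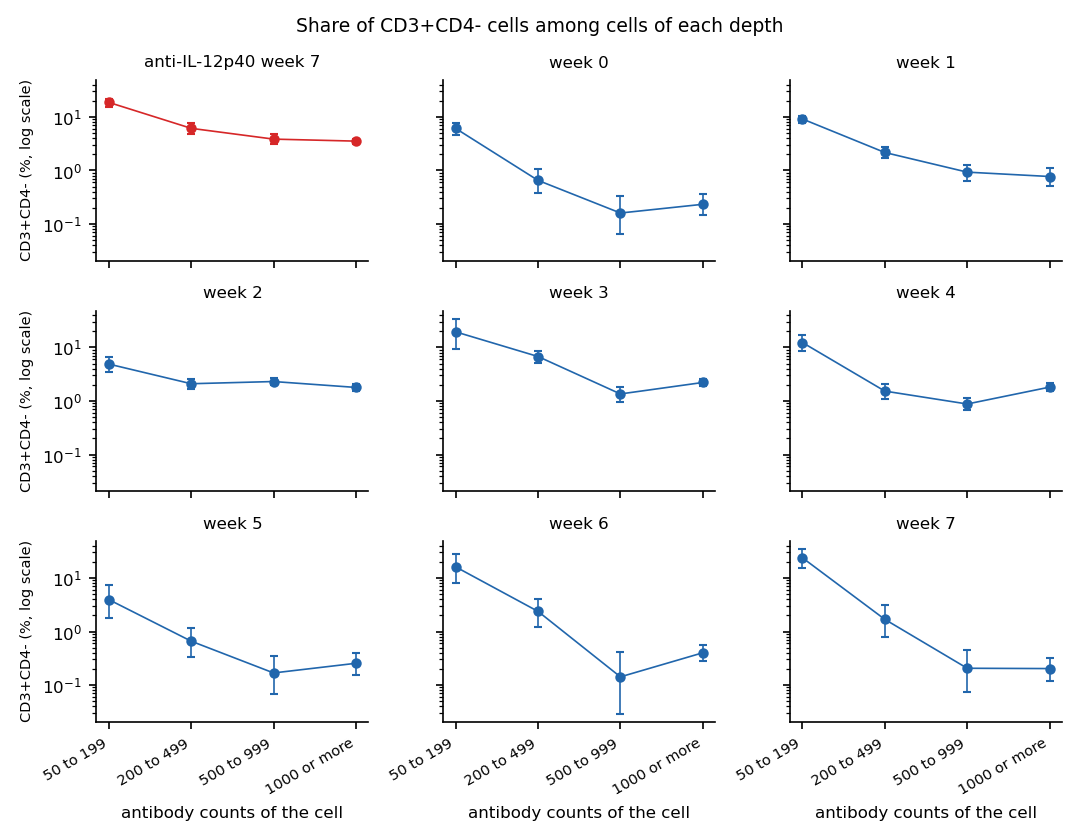
Percentage of cells that were CD3+CD4- (log axis) among cells of 4 depth classes (antibody counts per cell, horizontal axis), with exact 95% binomial intervals, for the treated library (red, top left) and the untreated weeks (blue). The share was highest in the shallowest class in each library, and above 1000 counts it stood at 3.53% in the treated library and at 0.203% at week 7.

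At weeks 3 and 4 the gate was led by deep cells that carried myeloid proteins beside CD3. At week 3, 155 of 299 members (51.8%) were positive for CD11b, CD11c or CD64, and at week 4 this held for 219 of 278 (78.8%). CD11b+CD11c+CD64+ cells (78) and CD11b+CD64+ cells (63) were the most frequent combinations at week 4, and CD11b alone (64) at week 3. Macrophages of the colon commonly carry CD11b with CD64. The myeloid-positive members of week 4 had a median of 43 counts for CD3 and 52 for CD4, 197 for CD11b, 71 for CD64 and 147 for CD90.2. In the same library CD3+CD4+ cells had 51 for CD3, 152 for CD4 and 10 for CD11b, and CD3-CD4- cells had 6 for CD3, 7 for CD4 and 203 for CD11b. CD3 on these members was thus near that of CD3+CD4+ cells, CD11b near that of CD3-CD4- cells, and CD4 between the values of both.

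At week 3 the myeloid-positive members were also the deepest. They had a median of 2825 counts, with 99 for CD3, 125 for CD4, 331 for CD11b and 598 for CD90.2, where CD3+CD4+ cells had 1411 counts and CD3-CD4- cells had 1349. CD4 lay more than 1 unit below its threshold in 17.4% of them at week 3 and in 33.3% at week 4, so that most had CD4 within 1 unit of the threshold. Whether such barcodes hold 1 cell or 2 was not tested. At weeks 0 and 1 and in the treated library the most frequent myeloid combination was CD11c alone (21 of 26, 40 of 67 and 38 of 87 myeloid-positive members), and at week 2 it was CD11c alone in 46 of 147 and CD11b+CD64+ in 36.

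CD3-bright members below the CD90.2 threshold were few, and 63 of the 106 came from week 3. Those 63 had a median of 596 counts, with 19 for CD3, 14 for CD4 and 92 for CD90.2. Elsewhere they numbered 2 to 12 per library and several carried every antibody at once. Their median CD90.2 count there ran from 143 in the treated library to 1352 at week 7. They were thus low in CD90.2 relative to their other antibodies, and not free of it. The 8 of week 5 had a median of 2733 counts, with 124 for CD3, 122 for CD4, 498 for CD90.2, 840 for Ly-6C and 25 for KLRG1, the lowest of the 11.

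At weeks 5 to 7 only 47, 60 and 52 cells were in the gate, and most lay at its edge. Within 0.25 units of the CD3 or the CD4 threshold lay 76.6% of members at week 5, 76.7% at week 6 and 71.2% at week 7. The same was true of 75.0% to 80.9% of members at weeks 0, 1, 3 and 4, but of 28.4% in the treated library and 33.0% at week 2. At the CD4 edge of week 7, the 12 members just inside had a median of 64 CD4 counts and the 22 cells just outside had 188.5. CD3-bright CD90.2+ members numbered 9, 25 and 10 at weeks 5, 6 and 7, and CD4 lay more than 1 unit below its threshold in 2, 6 and 4 of them.

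Week 2 and the treated library held most of the CD3-bright CD90.2+ members. In the treated library 339 of 566 members (59.9%) were CD3-bright, CD90.2+ and without CD11b, CD11c and CD64, which is 2.73% of kept cells. At week 2 they were 226 of 449 (50.3%), or 1.08% of kept cells. The gate fixed that their CD4 was low and their CD3 high, so these levels only describe them. Their median CD4 count was 4 in the treated library and 2 at week 2, at the level of CD90.2+ CD3-CD4- cells without myeloid proteins (3 and 2), whereas CD90.2+ CD3+CD4+ cells without myeloid proteins had 174 and 142. Their median CD3 count was 38 in the treated library and 22 at week 2, below the 56 and 38 of those CD3+CD4+ cells and above the 2 and 1 of those CD3-CD4- cells. CD90.2 was close to that of CD3+CD4+ cells, with a median of 1457 counts against 1490 in the treated library and 560.5 against 545 at week 2. Over all 11 antibodies these members had a median of 1633 counts in the treated library and 826 at week 2, against 1883 and 946.5 in those CD3+CD4+ cells and 928 and 568 in those CD3-CD4- cells. Without myeloid proteins here means without CD11b, CD11c and CD64, and not without Ly-6C. At week 2 Ly-6C was positive on 99.1% of these members, 97.6% of those CD3+CD4+ and 97.3% of those CD3-CD4- cells. In the treated library it was on 31.9%, 13.2% and 15.0%.

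Seen from CD3, the population formed a second mode. Among CD90.2+ cells without myeloid proteins whose CD4 was more than 1 unit below its threshold, 336 of 1936 (17.4%, interval 15.7% to 19.1%) lay above the CD3 threshold in the treated library and 251 of 2874 (8.73%, 7.73% to 9.83%) at week 2. The share was 26 of 6421 (0.405%) at week 0 and 126 of 4779 (2.64%) at week 1, where nearly all lay just above the threshold. More than 0.5 units above it were 286 cells in the treated library and 197 at week 2, but 0 to 5 in each of the other 7 libraries. As a share of such cells they came to 14.8% under treatment, 6.85% at week 2, and 4.42% and 6.25% at weeks 6 and 7, where they are 5 of 113 and 4 of 64 cells. In the other 5 libraries the share was 0% to 1.53%. At weeks 6 and 7 the shares above the threshold itself were 7.08% and 7.81%, so by share these weeks were not set apart from week 2.

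**Figure D3:**
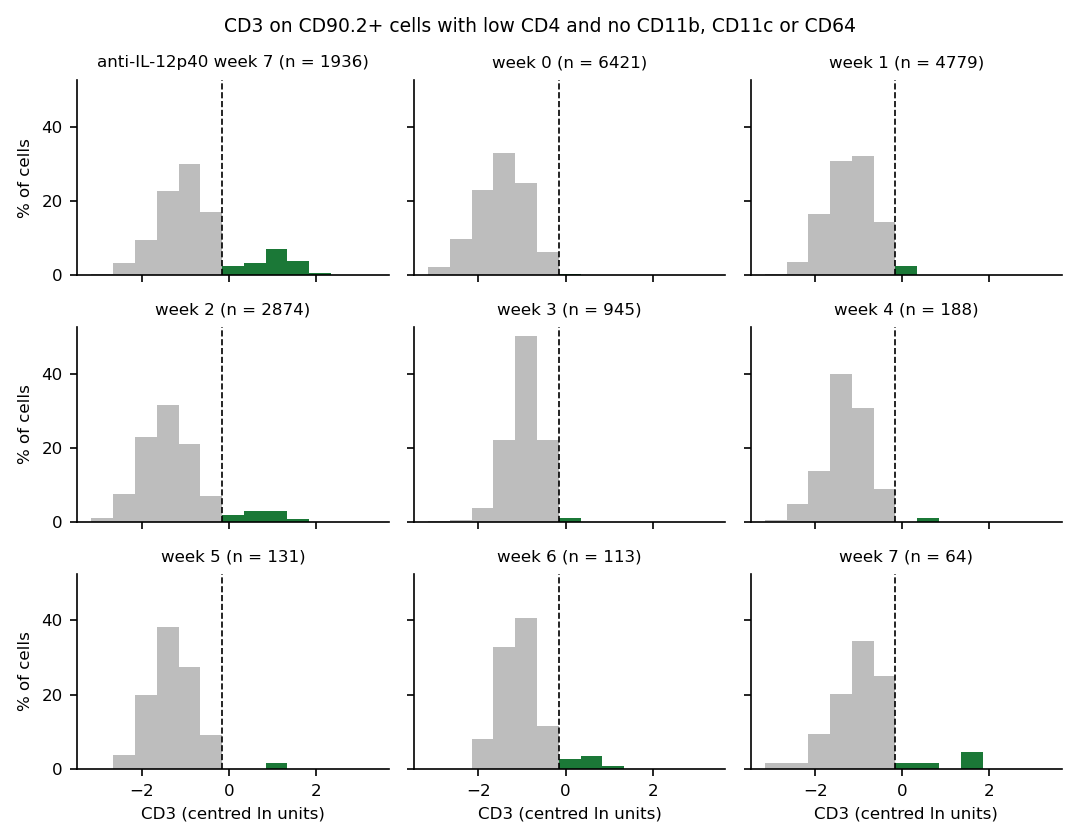
CD3 (centred natural log units, 0.5 per bin) on CD90.2+ cells negative for CD11b, CD11c and CD64 whose CD4 lay more than 1 unit below its threshold, as a percentage of those cells in each library, with the treated library at the top left. Green bars right of the dashed threshold are CD3+CD4- cells, which form a second mode of 286 cells in the treated library and 197 at week 2 more than 0.5 units above the threshold. Weeks 6 and 7 have 4.42% and 6.25% of their cells there, which are 5 and 4 cells.

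Seen from CD4, the same cells were a small separate group beside the CD3+CD4+ cells. Among CD3-bright CD90.2+ cells without myeloid proteins, CD4 lay more than 1 unit below its threshold in 291 of 7997 (3.64%, interval 3.24% to 4.07%) in the treated library and in 205 of 6547 (3.13%, 2.72% to 3.58%) at week 2. It did so in 7 of 468 at week 1 and in 4 of the 5 such cells of week 0. From week 3 to week 7 the share was 0.0235% to 0.0984%. In those later weeks the CD4 values of members ran into the lower tail of the CD3+CD4+ cells, with 41 cells within 1 unit below the threshold at week 3 and 5 cells further down.

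**Figure D4:**
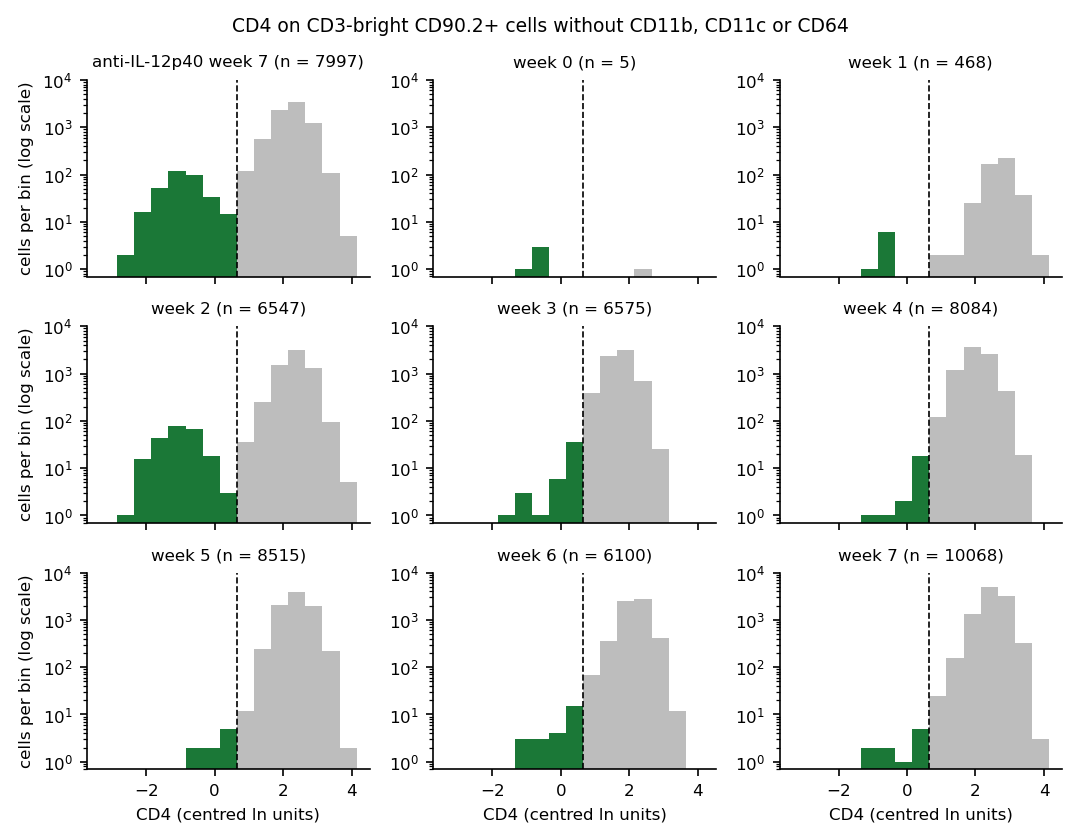
CD4 (centred natural log units, 0.5 per bin) on CD3-bright CD90.2+ cells negative for CD11b, CD11c and CD64, as cells per bin on a log axis, with the treated library at the top left. Green bars left of the dashed threshold are CD3+CD4- cells, which form a separate low mode in the treated library (291 cells more than 1 unit below) and at week 2 (205 cells), and a tail of the CD4+ cells at weeks 3 to 7. The 7 members of week 1 also lay more than 1 unit below.

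KLRG1 was more frequent on this population than on CD3+CD4+ cells in the treated library and at week 2. It was positive on 187 of 339 CD3-bright CD90.2+ members (55.2%, interval 49.7% to 60.5%) in the treated library, against 26.4% of CD90.2+ CD3+CD4+ cells and 50.5% of CD90.2+ CD3-CD4- cells, both without myeloid proteins. At week 2 it was positive on 148 of 226 (65.5%, 58.9% to 71.7%), against 39.0% and 52.5%. In both libraries the interval lay above the share on CD3+CD4+ cells, and at week 2 also above that on CD3-CD4- cells. KLRG1 was positive on 17 of 46 such members at week 3, 10 of 22 at week 4 and 3 of 25 at week 6. It was found on 0 of 9 at week 5 and 0 of 10 at week 7, which allow shares of up to 33.6% and 30.8%.

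In the treated library and at week 2, CD127 was lower on these members than on the cells beside them. It was positive on 71.1% (interval 65.9% to 75.9%) in the treated library, against 81.3% of those CD3+CD4+ and 90.1% of those CD3-CD4- cells. At week 2 it was positive on 23.5% (18.1% to 29.5%), against 48.6% and 68.8%. The median CD127 counts behind these shares were low, 6 against 9 and 10 in the treated library and 1 against 2 and 4 at week 2. The mixture components of CD127 were also the least separated apart from those of Ly-6C. CD103, the integrin that retains T cells at the epithelium, was rare in both libraries. It was positive on 2.06% (0.834% to 4.21%) in the treated library, against 36.7% of the CD3+CD4+ and 14.2% of the CD3-CD4- cells, and on 3.10% (1.25% to 6.28%) at week 2, against 6.19% and 10.8%. Other weeks did not all share this. At week 4 CD103 was positive on 11 of 22 such members (28.2% to 71.8%), against 15.6% and 22.6%. It was on 2 of 4 at week 0, 0 of 7 at week 1 and 5 of 46 at week 3. At weeks 5, 6 and 7 it was on 2 of 9, 3 of 25 and 2 of 10. The members had at least 10 CD3 counts, which was not asked of the cells they are set against. Among CD90.2+ CD3+CD4+ cells that also had 10 CD3 counts, KLRG1, CD127 and CD103 were positive on 26.3%, 81.4% and 36.9% in the treated library and on 39.3%, 48.6% and 6.31% at week 2. These are shares within single pooled libraries, so only counting error stands behind the intervals.

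In both libraries these members fell into more than 1 combination of CD127, KLRG1 and CD103 calls. The CD127 calls rest on the low counts given above, and whether the combinations are separate forms was not tested. At week 2 the leading combination was KLRG1 without CD127 and CD103, on 126 of 226 (55.8%), followed by none of these proteins on 42 and CD127 alone on 34. In the treated library CD127 alone (119 of 339, 35.1%) and CD127 with KLRG1 (118, 34.8%) were about equally common, and KLRG1 alone followed with 64. Over all 2151 members the 5 most frequent combinations of CD90.2, CD127, KLRG1 and CD103 were CD90.2 with CD127 (453), CD127 alone (377), CD90.2 alone (330), none (285) and CD90.2 with KLRG1 (283). The leading combination was CD127 alone at weeks 0 (45 of 100) and 3 (98 of 299), and none of the 4 at weeks 4 (147 of 278) and 5 (13 of 47). CD90.2 with KLRG1 led at week 2 (179 of 449), and CD90.2 with CD127 led in the treated library (182 of 566) and at weeks 1 (104 of 300), 6 (20 of 60) and 7 (13 of 52).

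Treatment with anti-IL-12p40, which blocks a chain of both IL-12 and IL-23, was compared in 1 library against 1, so no test was possible. CD3+CD4- cells were 4.55% (interval 4.19% to 4.93%) of kept cells in the treated library and 0.437% (0.326% to 0.572%) at untreated week 7, a ratio of 10.4. CD3-bright CD90.2+ members alone were 2.73% (2.45% to 3.03%) in the treated library and 0.0840% (0.0403% to 0.154%) at untreated week 7, a ratio of 32.5, from 339 and 10 cells. The treated share lay above untreated weeks 5, 6 and 7 in both measures, and it was also above week 2 (1.08% for the CD3-bright CD90.2+ members). The ratio over all members was 37.9 with a CD3 threshold 0.5 units higher and 2.12 when each library had its own fitted thresholds. The 2 sets of members also differed in median depth, with 1106 counts in treated and 393 in untreated members. The ratio was 6.55 with cells thinned to 200 counts and the CD3 and CD4 thresholds fitted anew. That setting left out cells under 200 counts, which were 19.4% of treated and 38.5% of untreated week 7 members. Among cells of 1000 counts or more the shares were 3.53% and 0.203%.

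Within the gate 6 of the 9 proteins lay past a rule of size between the treated and the untreated week 7 library: a ratio of at least 1.5 either way, intervals that do not overlap, and a treated value outside untreated weeks 5 to 7. Those 6 are 66.7% of the 9 proteins. The intervals cover the counting of cells in these 2 libraries, so the rule compares the libraries and not the conditions. CD90.2 was positive on 83.6% of treated and 48.1% of untreated week 7 members, and KLRG1 on 41.2% (interval 37.1% to 45.3%) of treated and 1.92% (0.0487% to 10.3%) of untreated members. Lower in the treated library were CD103 (5.83% against 17.3%, with intervals that end at 8.09% and begin at 8.23%), CD11b (4.77% against 21.2%), Ly-6G (0.530% against 15.4%) and Ly-6C (45.8% against 78.8%), whose 2 components were not separable. CD127 was positive on 68.9% of treated and 61.5% of untreated members, CD11c on 7.77% and 5.77%, and CD64 on 5.48% and 3.85%. With 52 untreated members, the intervals on the untreated side are wide. Several of these shifts were also seen outside the gate. On CD3-CD4- cells CD90.2 was positive on 74.4% in the treated and 20.9% in the untreated week 7 library, and KLRG1 on 38.1% and 9.82%. CD11b was on 11.8% and 69.1% of them, Ly-6C on 21.9% and 68.3%, and Ly-6G on 1.31% and 44.0%. CD103 went the other way there (19.6% and 13.3%). With 52 untreated members, the intervals on the untreated side are wide.

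Set against CD3+CD4+ cells of the same library, CD3+CD4- cells carried less CD90.2 and CD103 and more myeloid protein. The test used the mean within-library difference in percent positive over 8 libraries, since week 0 had 1 CD3+CD4+ cell, with a two-sided exact sign-flip permutation over libraries and Benjamini-Hochberg adjustment over the 9 proteins. It called 6 of 9 proteins (66.7%), with 4 higher (44.4%) and 2 lower (22.2%). High values of the 9 proteins raise the mean that the rule subtracts and so lower a cell's CD4 value. The 4 higher calls run in that direction, and the test cannot separate them from the rule. CD90.2 averaged 53.5% on CD3+CD4- and 97.7% on CD3+CD4+ cells, a difference of -44.2 ± 18.9 points (SD, n = 8 libraries), and it was lower in 8 of 8 (adjusted exact p = 0.0234). CD103 was lower in 7 of 8 (10.5% against 18.7%, adjusted exact p = 0.0352). CD11b was higher in 7 of 8 (23.8% against 5.70%, difference 18.1 ± 20.3 points, adjusted exact p = 0.0422) and CD64 in 7 of 8 (18.0% against 4.25%, adjusted exact p = 0.0469).

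CD11c and Ly-6G were higher in 8 of 8 libraries. CD11c averaged 16.0% on CD3+CD4- and 4.25% on CD3+CD4+ cells, and Ly-6G 5.69% and 0.720% (adjusted exact p = 0.0234 for both). CD127 (53.9% against 68.8%, adjusted exact p = 0.0904), KLRG1 (17.4% against 20.4%, adjusted exact p = 0.508) and Ly-6C (71.1% against 61.2%, adjusted exact p = 0.325) missed the threshold. KLRG1 was higher on CD3+CD4- cells in 3 libraries, among them week 2 (47.9% against 35.1%) and the treated library (41.2% against 25.7%), and lower in 5, among them week 3 (14.4% against 37.0%). Leaving out any 1 of weeks 2 to 7 or the treated library left 3 calls, with CD103, CD11b and CD64 lost. Without weeks 3 and 4 there were 0, with 3 of 9 below 0.05 before adjustment in the exact sign-flip test over the remaining 6 libraries. The smallest p this test can give is 0.03125 with 6 libraries, which the adjustment over 9 does not call for 3 proteins. These lost calls therefore cannot show that the differences rest on the libraries left out. With cells positive for CD11b, CD11c or CD64 left out of both classes, 1 of the 6 remaining proteins was called, and the Ly-6G difference turned to -0.0260 points.

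**Figure D5:**
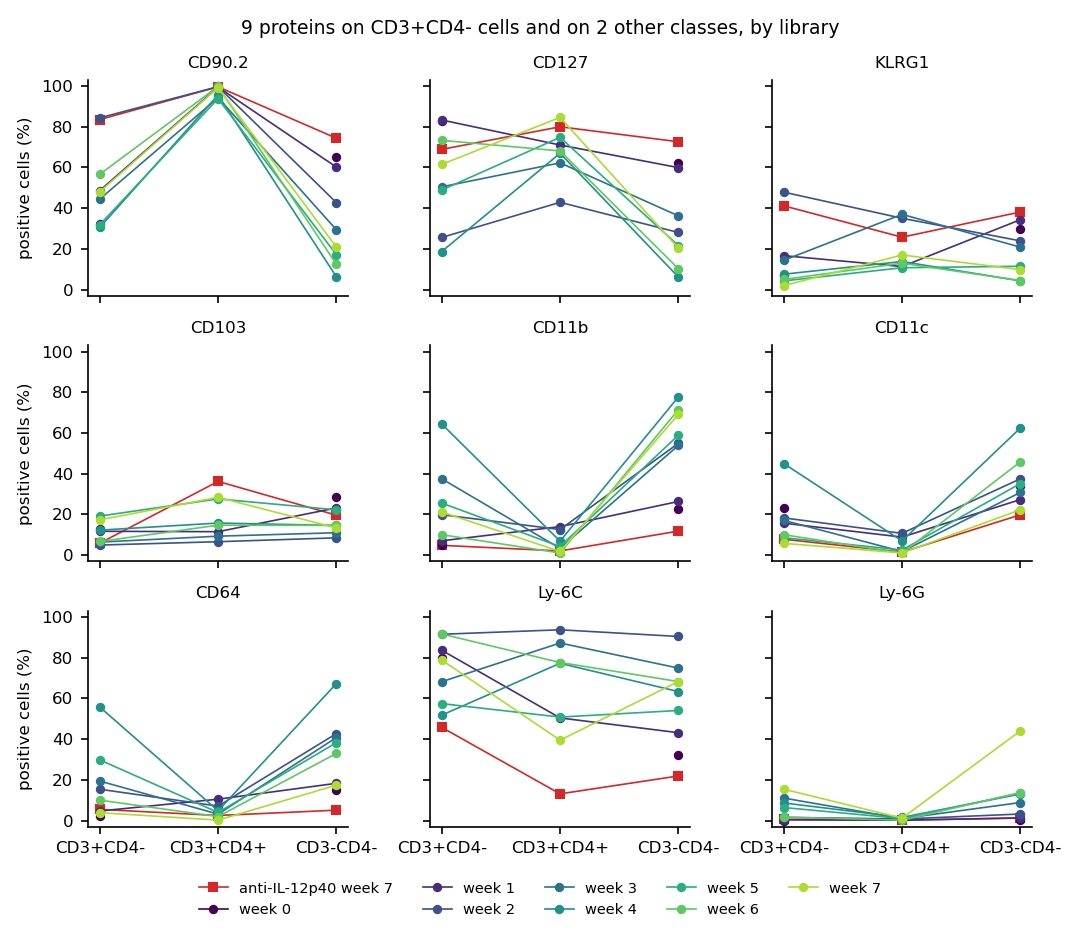
Percentage of cells positive for each of 9 proteins on CD3+CD4- cells (left), CD3+CD4+ cells (middle) and CD3-CD4- cells (right), 1 line per library, with anti-IL-12p40 week 7 in red squares and untreated weeks in circles. Week 0 has no middle point. CD90.2 is lower on CD3+CD4- than on CD3+CD4+ cells in 8 of 8 libraries, and CD11b and CD11c are lower on CD3+CD4- than on CD3-CD4- cells in 9 of 9.

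Set against CD3-CD4- cells, which share the low CD4 but lie below the CD3 threshold, CD3+CD4- cells carried less of the myeloid integrins and more CD127, in directions that did not hold for CD11c and CD127 under every setting. This comparison used 9 libraries and called 5 of 9 proteins (55.6%), 1 higher (11.1%) and 4 lower (44.4%). The mean that the rule subtracts holds the 9 tested proteins, so high values of them lower a cell's CD3 value. The 4 lower calls run in that direction, and the test cannot separate them from the rule. CD11b averaged 21.7% on CD3+CD4- and 49.6% on CD3-CD4- cells, lower in 9 of 9 libraries (difference -27.9 ± 17.9 points, SD, adjusted exact p = 0.0176). CD11c averaged 16.8% and 35.0%, also lower in 9 of 9 (adjusted exact p = 0.0176). CD64 was lower in 8 of 9 (16.3% against 30.8%, adjusted exact p = 0.0234), and CD103 in 8 of 9 (10.8% against 17.3%, adjusted exact p = 0.0352). CD127 was higher in 7 of 9 (57.1% against 35.3%, adjusted exact p = 0.0352). Without myeloid-positive cells the CD127 difference turned to -6.02 points. With scaling to the library median CD11c turned to 7.50 points and CD103 to 0.620, CD11b was not called (adjusted exact p = 0.129), and 1 call was left.

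CD90.2 (51.2% against 36.5%, higher in 7 of 9, adjusted exact p = 0.132), Ly-6C (72.1% against 57.4%, adjusted exact p = 0.0904), Ly-6G (5.06% against 11.01%, adjusted exact p = 0.0645) and KLRG1 (16.2% against 19.7%, adjusted exact p = 0.441) missed the threshold. For CD90.2 the exceptions were weeks 0 and 1, where 32.0% and 48.7% of CD3+CD4- cells were positive against 65.4% and 60.2% of CD3-CD4- cells. With 1 library left out at a time, the call for CD103 was lost in 8 of 9 fits, all but that without week 7, and the call for CD127 in 7 of 9, all but those without week 2 and without the treated library. CD11b, CD11c and CD64 were called in 9 of 9, and Ly-6G was also called without week 3. With at least 10 CD3 counts asked of members 0 proteins were called in this comparison by the adjusted exact sign-flip test over 8 libraries, with 4 of 9 below 0.05 before adjustment, and with a CD3 threshold 0.5 units lower there were 8.

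Depth was compared through the summed counts of the 9 antibodies other than CD3 and CD4. These 9 also enter the mean that the rule subtracts, so this depth is not independent of the gate. Against CD3+CD4+ cells the median sum of CD3+CD4- cells was lower in 6 of 8 libraries, with a ratio of 0.644 in the treated library, 0.226 and 0.934 at weeks 1 and 2, and 0.944, 0.894 and 0.377 at weeks 5 to 7. At weeks 3 and 4 the ratios were 1.55 and 1.57. Members were thus shallower than CD3+CD4+ cells at weeks 1 and 7 and deeper at weeks 3 and 4. Against CD3-CD4- cells the ratio was 1.35 in the treated library and at week 3, but 0.930 at week 4. It was 1.02 at week 2 and 0.172 to 0.805 in the other weeks. The mean log2 ratio to CD3+CD4+ cells was -0.41 ± 0.97 (SD, n = 8, exact sign-flip permutation p = 0.266, adjusted p = 0.266). To CD3-CD4- cells it was -0.70 ± 1.15 (n = 9, exact sign-flip permutation p = 0.156, adjusted p = 0.266). With at least 10 CD3 counts asked of members both turned round, to 0.66 and 0.59, but that filter itself leaves out shallow members and so says nothing of their depth.

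Over weeks 0 to 7 the adjusted exact permutation test of Spearman's correlation called 0 of 9 proteins (0%) on CD3+CD4- cells. Before adjustment 1 of 9 was below 0.05, and 0 of 9 were called by Pearson's r. Such a test looks for a steady rise or fall, so it does not show that the proteins stayed the same. CD11b was positive on 5.00% of members at week 0, 64.4% at week 4 and 21.2% at week 7. CD127 was positive on 83.0%, 18.7% and 61.5% in those weeks. Ly-6G was positive on 0%, 0.333%, 1.56%, 11.04%, 8.63%, 6.38%, 1.67% and 15.4% of members from week 0 to week 7 (Spearman 0.76, exact p = 0.0368, adjusted p = 0.249). Its Pearson correlation was 0.65 (exact permutation p = 0.0872), and with weeks 0 and 7 left out Spearman's was 0.43 and Pearson's 0.23. None of the 100 cells of week 0 was positive, which allows up to 3.62%. KLRG1 was on 7.00%, 16.7%, 47.9%, 14.4%, 7.55%, 4.26%, 5.00% and 1.92% of members from week 0 to week 7 (Spearman -0.71, exact p = 0.0576, adjusted p = 0.249). Its Pearson correlation was -0.45 (exact permutation p = 0.287), and with weeks 0 and 7 left out Spearman's was -0.89 (exact p = 0.0333) and Pearson's -0.64. It peaked at week 2 and was lowest at week 7. The other 7 proteins had correlations between -0.67 and 0.48.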

How the data were processed

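Surface proteins were measured by sequencing of antibody tags in 9 libraries of sorted colonic immune cells, and the other 55 of the 64 samples of the series were not analysed here. The files deposited by the authors hold raw counts for 11 antibodies in each barcode, as whole numbers. Cell Ranger 6.0.2, Seurat 4.1.1 and mm10 are named in the submitters' processing notes. The selection of barcodes is not stated in the labels. Groups came from the sample titles. The members, kinds and lists were chosen with earlier results of these data known.

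Gates and filters are those given above. Mixtures of 2 components were fitted on 2000 cells per library, and classes with under 20 cells in a library were left out. Ashman's D, the distance between components in units of their spread, was 0.951 for Ly-6C and 2.01 for CD127, and 2.47 or more for the other 7. Differences between classes were tested by exact sign-flip permutation over libraries and trends by exact permutation of 40320 orderings, with Benjamini-Hochberg adjustment at 0.05. With 8 and 9 libraries the smallest p of the sign-flip test is 0.0078 and 0.0039. With 6 and 7 libraries it is 0.03125 and 0.0156, so calls can be lost by the number of libraries alone. All 11 antibodies are named, and of the combinations those most frequent overall and in each library. Doublets were not called, since antibody counts alone give a caller no usual input. Steps were tested on simulated data that held no class of shallow or of myeloid-positive cells. That test therefore does not speak to such members of the gate. Alternatives were another scaling, other thresholds, depth filters, thinning, leaving out libraries or myeloid-positive cells, another centring and other denominators. The CD3-bright CD90.2+ members alone, and leaving out weeks 0 and 1 or weeks 3 and 4, were added after seeing the data. Tools were scikit-learn 1.9.0, scipy 1.17.1 and numpy 2.4.6 under Python 3.11.15, with figures drawn in matplotlib 3.10.9.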

Additional observations from a re-analysis of the deposited data

How the results depend on the processing

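The 9 libraries are pools of 3 animals, 1 per week and treatment, so no alternative measures the spread between animals, and 47 to 60 cells at weeks 5 to 7 limit every share there. No paired analysis was possible because each week and treatment has 1 library, with no replicate to pair between groups, while classes of cells were compared within each library. With a CD3 threshold 0.5 units higher, too few libraries had 20 members, and protein and depth comparisons were not run; depth was not compared after thinning, which gives each cell the same total. The causes of the differences below were not tested, apart from fewer libraries where some were left out.

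The correlation of the share with week stayed between -0.79 and -0.50 with each library left out. It was -0.79 without cells positive for CD11b, CD11c or CD64, past the threshold. With CD3+ cells as the denominator it was -0.93, which is a description only, since that denominator grows with the CD3+CD4+ cells. It was -0.095 with scaling to the library median, -0.048 and -0.19 with higher CD4 and CD3 thresholds, -0.024 with at least 10 CD3 counts and 0.29 for CD3-bright CD90.2+ members. The ratio of treated over untreated week 7, 10.4, was 6.21 with scaling to the library median, 37.9 and 7.18 with the CD3 threshold 0.5 units higher and lower, and 5.48 and 15.4 with the CD4 threshold 0.5 higher and lower. It was 2.12 with thresholds fitted in each library, 6.55 after thinning, 15.8 with at least 10 CD3 counts, 18.1 for CD90.2+ members and 32.5 for CD3-bright CD90.2+ members, and above 1 in each of the 14 alternatives.

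Against CD3+CD4+ cells, 6 proteins were called, and 3 to 7 with each library left out. The number was 2 with a lower CD4 threshold, 1 with thresholds fitted in each library, 1 (of 6 tested) without myeloid-positive cells, 3 in the 8 untreated libraries and 0 without weeks 3 and 4 (3 below 0.05 unadjusted, exact sign-flip test). The last setting has 6 libraries, where the smallest p of that test is 0.03125. KLRG1, which was not called, turned positive by 0.239 points with scaling to the library median, 1.80 with a higher CD4 threshold, 3.56 with thresholds per library, 1.27 without myeloid-positive cells, 0.685 without weeks 3 and 4, 1.40 when centred on all 11 antibodies and 0.12 log units without a threshold. Ly-6C turned to -4.77 points with at least 10 CD3 counts, CD127 to 1.71 when centred on 11, and Ly-6G to -0.0260 without myeloid-positive cells.

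Against CD3-CD4- cells, 5 proteins were called, and 3 to 4 with each library left out. The number was 1 with scaling to the library median, 8 with a lower CD3 threshold, 3 with a higher CD4 threshold, 0 with at least 10 CD3 counts (4 below 0.05 unadjusted, exact sign-flip test), 2 (of 6 tested) without myeloid-positive cells, 2 without a threshold on the protein and 3 without weeks 0 and 1. With scaling to the library median CD90.2 turned to -10.3 points, CD103 to 0.620, CD11c to 7.50 and Ly-6C to -0.318. Without myeloid-positive cells CD90.2 turned to -15.6 and CD127 to -6.02. KLRG1 turned to 1.22 with a higher CD4 threshold, 3.06 with thresholds per library, 1.32 without weeks 0 and 1 and 0.23 log units without a threshold, and Ly-6G to 0.087 log units. Ly-6C, not separable, also turned to -4.72 with thresholds per library, -12.0 with at least 200 counts, -12.7 without an upper filter, -4.11 with at least 10 CD3 counts, -14.4 when centred on 11 and -0.019 log units without a threshold.

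The log2 depth ratio to CD3+CD4+ cells was -0.56 to -0.16 with each library left out, and that to CD3-CD4- cells -0.85 to -0.47. Past the threshold were -0.90 and -1.32 with scaling to the library median, -0.51 and -0.78 with a lower CD3 threshold, -1.12 and -1.33 with a lower CD4 threshold, and -0.93 to CD3+CD4+ cells without myeloid-positive cells. The first ratio turned to 0.15 with a higher CD4 threshold, 0.15 with thresholds per library and 0.18 with at least 200 counts, and with at least 10 CD3 counts, a filter on depth itself, both turned, to 0.66 and 0.59. Among proteins over the weeks, 0 were called with each library left out and 1, Ly-6G, with scaling to the library median and after thinning, and its correlation turned to -0.29 with thresholds per library.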
